A study of Mus musculus with 38 samples.

Results

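Fasted LIRFKO mice, in which albumin-Cre removed both the insulin receptor (Insr) and the transcription factor FoxO1 (Foxo1) from hepatocytes, were compared with their own IR/FoxO1 floxed controls. The members were the 6 liver libraries of these groups among the 38 of the series, chosen by sample title: LIRFKO mice IRF.KO_Fast_519, IRF.KO_Fast_518 and IRF.KO_Fast_525 and IR/FoxO1 floxed mice IRF.fl_Fast_516, IRF.fl_Fast_523 and IRF.fl_Fast_533. All were male, aged 11 to 12 weeks and of a mixed FVB/N-C57Bl/6 strain, and their fast is given in the labels both as overnight and as 24 h. The IR/FoxO1 floxed mice carried the floxed alleles of both genes, and the labels name no Cre for them. Beside these stood 3 fasted LIRKO mice (insulin receptor deleted by the same Cre, FoxO1 kept) with 4 fasted IR floxed controls. Used likewise were 4 LIRFKO with 3 IR/FoxO1 floxed mice refed for 6 h. The remaining groups entered the main fit only, where they helped set the spread behind each p. They were 4 refed IR floxed and 4 refed LIRKO mice, and 3 IR floxed, 3 LIRKO and 3 LIRFKO mice given glucose (titled GTT). Each library was a separate mouse and 1 colour channel of an Agilent two-colour array, and values are log2 intensities. Albumin-Cre acts in hepatocytes, so other liver cells kept both genes, and no group with Cre and without floxed alleles was analysed here.

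The insulin receptor is a tyrosine kinase that signals through insulin receptor substrates and the kinase Akt. Akt phosphorylates FoxO1 and keeps it out of the nucleus, so in fasted liver, where insulin is low, FoxO1 drives genes such as Igfbp1, which encodes an IGF binding protein, G6pc, which encodes the catalytic subunit of glucose-6-phosphatase, and Irs2, which encodes an insulin receptor substrate. With the receptor removed FoxO1 escapes this restraint, and the double knockout removes both the brake and the factor. The comparison with floxed controls asks which transcripts differ in fasted liver when both are missing.

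FoxO proteins bind letters of the kind GTAAACA and CAAAACA, the second of which lies in the insulin response element of Igfbp1. Promoters of 2 genes of this pathway are shown because both genes were called higher in fasted LIRKO liver and neither passed the test in fasted LIRFKO liver. The RefSeq sequences (GRCm38.p6) run from 250 bases before to 50 bases after the start site, read 5′ to 3′ on the strand of the gene, and capitals mark CAAAACA or its reverse complement TGTTTTG. That of Igfbp1 is chr11:7197537-7197836 on the plus strand, with the match at -108, and that of Irs2 is chr8:11008880-11009179 on the minus strand, with the match at -37.
Igfbp1: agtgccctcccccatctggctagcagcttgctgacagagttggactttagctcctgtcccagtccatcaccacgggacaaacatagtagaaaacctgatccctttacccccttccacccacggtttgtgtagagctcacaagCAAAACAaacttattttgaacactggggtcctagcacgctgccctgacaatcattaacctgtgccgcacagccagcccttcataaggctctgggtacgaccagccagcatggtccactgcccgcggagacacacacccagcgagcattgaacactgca
Irs2: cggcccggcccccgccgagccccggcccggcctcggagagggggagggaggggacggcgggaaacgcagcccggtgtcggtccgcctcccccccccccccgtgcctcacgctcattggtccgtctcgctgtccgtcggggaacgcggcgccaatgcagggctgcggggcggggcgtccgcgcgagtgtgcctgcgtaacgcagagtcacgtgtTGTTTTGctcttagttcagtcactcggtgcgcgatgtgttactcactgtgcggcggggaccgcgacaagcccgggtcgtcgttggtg
GTAAACA was found on either strand in 3.55% and CAAAACA in 6.0% of the 17162 measured genes with a promoter in the table, and either in 9.24%. Of 18 FoxO1 target genes with a promoter, 27.8% held either motif. Of the genes called without IRF.fl_Fast_523, 0 of 3 higher and 0 of 5 lower genes with a promoter held one, as did 6.1% of 82 genes with a negative and 7.89% of 76 genes with a positive called difference between the LIRFKO and LIRKO lines. A match is only a run of letters.

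Levels of the deleted genes went with the labels in 5 of the 6 libraries. Foxo1 stood at 6.83, 7.12 and 6.81 in LIRFKO mice IRF.KO_Fast_519, IRF.KO_Fast_518 and IRF.KO_Fast_525, against 10.57, 6.77 and 10.17 in IR/FoxO1 floxed mice IRF.fl_Fast_516, IRF.fl_Fast_523 and IRF.fl_Fast_533. Insr stood at 6.45, 6.58 and 6.81 in the LIRFKO mice, against 8.27, 6.90 and 8.14 in the same floxed mice. The library labelled IRF.fl_Fast_523 therefore had Foxo1 below every LIRFKO library and Insr just above the highest one. Whether the probes lie in the deleted exons is not given in the sources used here. Because of this library, results are given with all 6 libraries and without IRF.fl_Fast_523.

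**Figure D1:**
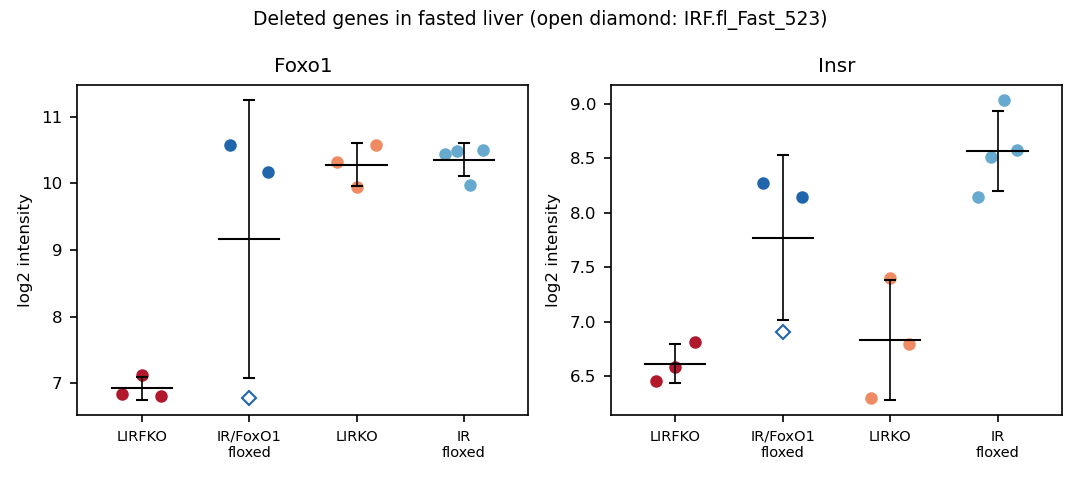
Log2 intensity of Foxo1 and Insr in each fasted library of the LIRFKO, IR/FoxO1 floxed, LIRKO and IR floxed groups, with bars for mean and SD over all libraries of a group. The open diamond is IRF.fl_Fast_523, at 6.77 for Foxo1 and 6.90 for Insr, among the LIRFKO libraries rather than the other floxed ones.

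The 6 libraries were close to one another, with correlations across genes from 0.9881 to 0.9954 and column medians from 5.72 to 5.76. The closest pair was IRF.KO_Fast_525 and IRF.fl_Fast_523, at 0.9954. IRF.KO_Fast_518 correlated with the other 5 at 0.9881 to 0.9913 and carried the highest erythroid signal, with Hbb-b1 (a beta globin) at 14.09, against 12.06 to 12.39 in the other 5 libraries. Hepatocyte markers averaged 15.22, 15.21 and 15.09 in LIRFKO mice IRF.KO_Fast_519, IRF.KO_Fast_518 and IRF.KO_Fast_525, against 15.21, 15.03 and 15.21 in floxed mice IRF.fl_Fast_516, IRF.fl_Fast_523 and IRF.fl_Fast_533, so the tissue matched its label. In bulk liver, fewer cells of a type and less RNA per cell cannot be told apart.

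Very few genes separated the groups. Of 22485 genes fitted with limma, 1 passed an adjusted p of 0.05 with all 6 libraries (0.00445%), higher in LIRFKO, and 0 were lower, while 819 had an unadjusted p under 0.05 (3.64%). Without IRF.fl_Fast_523 the count was 9 (0.04%), 3 higher (0.0133%) and 6 lower (0.0267%), with 1085 genes at an unadjusted p under 0.05 (4.83%). The same fit called 1812 genes (8.06%) in fasted LIRKO mice against IR floxed mice, 930 higher (4.14%) and 882 lower (3.92%), and 83 (0.369%) in refed LIRFKO mice against refed IR/FoxO1 floxed mice. Groups did not overlap for 7.41% of all genes with all 6 libraries and for 18.5% without IRF.fl_Fast_523, whatever their p. The median standard error of a change was 0.12 with all 6 libraries and 0.14 without IRF.fl_Fast_523, and the median distance from a change to either end of its 95% interval was 0.255, against 0.227 for the LIRKO comparison. Changes of at least 1 on the log2 scale, whatever their p, numbered 43 with all 6 libraries and 98 without IRF.fl_Fast_523, against 509 in LIRKO. Changes below are LIRFKO minus floxed, adjusted in the fit for dye and array, so they can depart from plain differences of the values shown.

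Both deleted genes passed the test only without IRF.fl_Fast_523. Foxo1 fell by 3.56 ± 0.22 (SE) without IRF.fl_Fast_523 (limma, adjusted p = 1.66e-10), and with all 6 libraries its change of -2.44 ± 0.50 did not pass (adjusted p = 0.254). Insr fell by 1.39 ± 0.22 without IRF.fl_Fast_523 (limma, adjusted p = 0.00563), and its change with all 6 was -0.99 ± 0.25 (adjusted p = 1.0). That library was left out for its values of these same genes, so their p without it depends on that choice and is not independent evidence that they fell. Insr was carried by the brightest of its 3 probes: plain differences, LIRFKO minus the mean of IRF.fl_Fast_516 and IRF.fl_Fast_533, were -1.59 at that probe and -0.64 and -0.6 at the others, and with the mean of all probes its call was lost (adjusted p = 0.0878). For Foxo1 both probes were lower in LIRFKO, by plain differences of -3.46 and -2.47. The paralogs Foxo3, Foxo4 and Foxo6, which encode the other FoxO factors, did not pass in either set, with Foxo3 at 5.55, 5.46 and 5.55 in LIRFKO mice, against 5.49, 5.57 and 5.72 in floxed mice. All of these paralogs lay below the median gene and near the low end of the scale in every one of the 6 libraries, so the lack of a call says little about them.

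Among the other genes lower in LIRFKO without IRF.fl_Fast_523 was Pcsk6, which encodes a proprotein convertase. Pcsk6 had 10.96, 10.71 and 10.24 in LIRFKO mice, against 11.64, 10.60 and 11.76 in floxed mice IRF.fl_Fast_516, IRF.fl_Fast_523 and IRF.fl_Fast_533. It fell by 1.07 ± 0.16 (limma, adjusted p = 0.00555), with IRF.fl_Fast_523 inside the LIRFKO range. Omd, which encodes osteomodulin, a leucine-rich matrix proteoglycan, had 6.20, 5.57 and 5.98 in LIRFKO mice, against 6.87, 5.82 and 6.82 in floxed mice, and fell by 0.93 ± 0.16 (adjusted p = 0.0175, limma). Syde2, which encodes a GTPase-activating protein, had 5.59, 5.44 and 5.71 in LIRFKO mice, against 6.16, 5.72 and 6.43 in floxed mice, and fell by 0.64 ± 0.11 (adjusted p = 0.0175, limma). Ttc21b, which encodes a subunit of the intraflagellar transport machinery of cilia, had 6.07, 6.26 and 6.10 in LIRFKO mice, against 6.61, 6.35 and 6.82 in floxed mice, and fell by 0.65 ± 0.12 (adjusted p = 0.0371, limma). For all of these genes the floxed libraries IRF.fl_Fast_516 and IRF.fl_Fast_533 lay above every LIRFKO library, while IRF.fl_Fast_523 lay within or next to the LIRFKO values. The second probe of Ttc21b showed a plain difference of 0 at a level of 5.37 in both groups, near the low end of the range. Omd (6.15) and Syde2 (5.92) averaged below the median gene (6.17) over all columns. The LIRFKO values of Syde2 lay near the low end of the range.

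The genes higher in LIRFKO without IRF.fl_Fast_523 were Mmd2, Pcolce and 1700113H08Rik. Mmd2, which encodes a membrane protein of the progestin and adipoQ receptor family, had 8.90, 8.36 and 8.90 in LIRFKO mice, against 6.39, 9.20 and 6.52 in floxed mice, and rose by 2.26 ± 0.39 (limma, adjusted p = 0.0175). Pcolce, which encodes an enhancer of the proteinase that trims procollagen, had 9.41, 9.12 and 9.43 in LIRFKO mice, against 7.56, 9.64 and 8.46 in floxed mice, and rose by 1.45 ± 0.25 (limma, adjusted p = 0.0175). In both, IRF.fl_Fast_523 was the highest of the 6 libraries and IRF.fl_Fast_516 the lowest. 1700113H08Rik, whose role is not given here, had 6.56, 6.33 and 6.51 in LIRFKO mice, against 5.57, 5.51 and 5.58 in floxed mice. It was the 1 gene called with all 6 libraries (0.96 ± 0.16, limma, adjusted p = 0.0304), and without IRF.fl_Fast_523 it rose by 0.97 ± 0.17 (adjusted p = 0.0242). Here IRF.fl_Fast_523 sat with the other floxed libraries, and the groups did not overlap. All floxed values of this gene lay below the column medians (5.72 to 5.76), near the low end of the scale. Where IRF.fl_Fast_523 sat for this gene therefore says little about that library. Syde2 and 1700113H08Rik lay outside the rule for naming genes and were named after their values were seen.

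**Figure D2:**
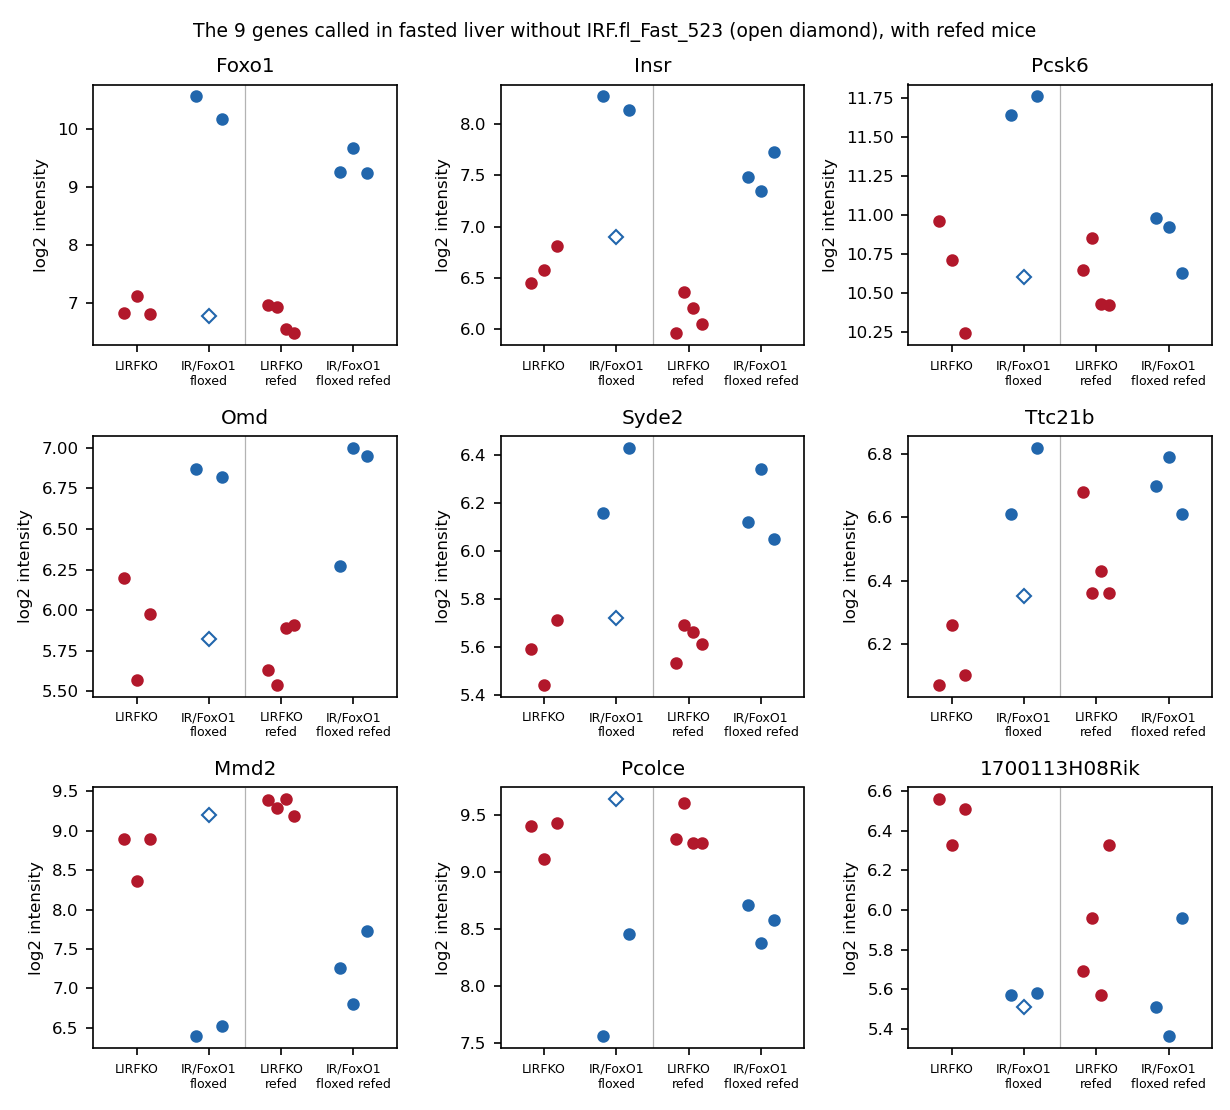
Log2 intensity of the 9 genes called without IRF.fl_Fast_523 in each fasted and refed library of the LIRFKO (red) and IR/FoxO1 floxed (blue) groups. The open diamond, IRF.fl_Fast_523, lies on the LIRFKO side in every panel except 1700113H08Rik.

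The calls rested on few mice. Of the 14 or 13 alternatives run without IRF.fl_Fast_523, Foxo1 kept its call in 13 of 14, at an adjusted p of 0.0501 when only the compared libraries were fitted. Insr and Pcsk6 kept theirs in 9 of 14, Mmd2 in 8, Pcolce in 7 and Ttc21b in 1 of 14, while Syde2 kept its call in 7 of 13 and Omd and 1700113H08Rik in 4 of 13. Without IRF.KO_Fast_525 the count of called genes was 2, and without IRF.fl_Fast_516 it was also 2, as it was 3 without IRF.fl_Fast_533 and 5 without IRF.KO_Fast_519. With all 6 libraries 1700113H08Rik lost its call without IRF.KO_Fast_519 (adjusted p = 0.208), without IRF.KO_Fast_525 (0.237), without IRF.fl_Fast_516 (0.228) and without IRF.fl_Fast_533 (0.226). It also lost it without IRF.fl_Refed_472 (0.0544), IRF.KO_Refed_478 (0.0622) or IR.fl_Fast_491 (0.064). Its change kept between 0.85 and 1.04 over the alternatives.

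To place library IRF.fl_Fast_523, each called gene was put on a scale with the mean of IRF.fl_Fast_516 and IRF.fl_Fast_533 at 0 and the LIRFKO mean at 1. Foxo1 (1.04) and Insr (0.82) are the genes by which this library was singled out. Of the other 7 genes it lay nearer LIRFKO for 6, with a median of 1.04 and a range from -0.08 (1700113H08Rik) to 1.25 (Pcolce). Over all 9 genes, Foxo1 and Insr included, IRF.fl_Fast_523 had a median of 1.04. On the same 9 genes fasted IR floxed mice had a median of 0.02 and refed IR/FoxO1 floxed mice 0.32. Mmd2 stood at 1.21 for IRF.fl_Fast_523, against medians of 0.05 in fasted IR floxed and 0.36 in refed IR/FoxO1 floxed mice. Other floxed mice also lay toward LIRFKO for some genes. Ttc21b stood at 0.64 for IRF.fl_Fast_523, against medians of 0.80 in fasted IR floxed and 0.03 in refed IR/FoxO1 floxed mice. For Pcsk6 it was 1.04, against 0.48 and 0.73 in the same groups. The 9 genes were called after this library had been set aside for its own Foxo1 and Insr values, so the placing is a description with no test.

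Refed LIRFKO and IR/FoxO1 floxed mice, which share no animal with the fasted ones, gave a second view of the same knockout. In the fit without IRF.fl_Fast_523, 5 of the 9 fasted calls were also called in refed liver (55.6% of the 9 and 7.14% of the 70 refed calls, which were 0.311% of genes): Foxo1, Insr, Mmd2, Omd and Syde2. Foxo1 and Insr are the deleted genes by which IRF.fl_Fast_523 was left out, so their fasted calls depend on that choice. Only Mmd2, Omd and Syde2 are shared beyond them. Mmd2 had 9.39, 9.29, 9.40 and 9.19 in refed LIRFKO mice, against 7.26, 6.80 and 7.73 in refed floxed mice, a rise of 1.94 ± 0.33 (limma, adjusted p = 0.00474). Omd had 5.63, 5.54, 5.89 and 5.91 in refed LIRFKO mice, against 6.27, 7.0 and 6.95 in refed floxed mice, a change of -1.04 ± 0.14. In Mmd2 and Omd the refed groups did not overlap. Pcolce (0.63), Pcsk6 (-0.26), Ttc21b (-0.25) and 1700113H08Rik (0.19) did not pass in refed liver.

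Conversely, genes called in refed liver had small changes of the same sign in fasted liver. Of the 83 refed calls, 74 (89.2%) had the same sign in fasted LIRFKO mice with all 6 libraries and 72 (86.7%) without IRF.fl_Fast_523. The median ratio of the fasted to the refed change was 0.2 with all 6 libraries and 0.33 without IRF.fl_Fast_523. The correlation across these genes was 0.805 and 0.815, as a description over genes measured on the same arrays. These genes were chosen by their refed values, which favours larger refed changes. A test of the difference between fasted and refed knockout effects called 1 gene (0.00445%), Clic5, which encodes a chloride intracellular channel protein and was named after its values were seen. Clic5 had 5.55, 5.72 and 5.55 in fasted LIRFKO mice, against 5.65, 5.61 and 5.66 in fasted floxed mice. In refed mice it had 5.57, 5.58, 5.44 and 5.66 in LIRFKO, against 7.10, 6.68 and 6.88 in floxed. All but the refed floxed values lay near the low end of the scale, where the lowest value was 5.07. A fall of Clic5 in fasted liver could therefore hardly have been seen, and the difference rests on the refed floxed mice. The fasted effect minus the refed effect was 1.30 (limma, adjusted p = 0.00522), and 1.31 without IRF.fl_Fast_523 (adjusted p = 0.0388). The second value lost its call when IRF.KO_Fast_519, IRF.KO_Fast_518, IRF.fl_Fast_516 or IRF.fl_Fast_533 was also left out (adjusted p from 0.185 to 0.476).

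**Figure D3:**
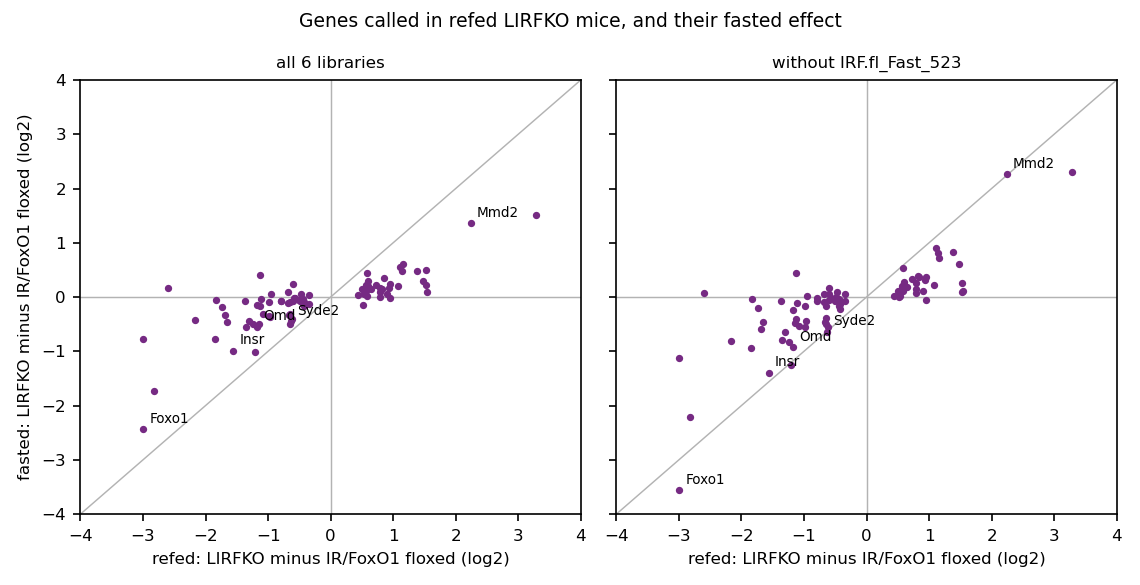
Each point is 1 of the 83 genes called in refed LIRFKO mice, with its refed change on the x axis and its fasted change on the y axis (both log2, LIRFKO minus IR/FoxO1 floxed), with all 6 fasted libraries on the left and without IRF.fl_Fast_523 on the right. Most points lie between the diagonal and the x axis, and 72 of 83 keep their sign in the right panel.

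Known genes downstream of insulin and FoxO1 did not pass in fasted LIRFKO liver. Igfbp1 had 14.71, 12.69 and 13.01 in LIRFKO mice, against 14.77, 12.79 and 12.48 in floxed mice, a change of -0.44 ± 0.83 with a 95% interval from -2.15 to 1.26. In fasted LIRKO mice it had 15.90, 15.97 and 16, at the top of the range, against 14.54, 14.41, 13.66 and 12.82 in IR floxed mice, a rise of 2.53 ± 0.74 (limma, adjusted p = 0.0319) that is a lower bound because of this ceiling. Within the LIRFKO line, IRF.KO_Fast_519 and IRF.fl_Fast_516 were high and the other 4 libraries low, so the groups overlapped. Irs2 had 10.15, 10.42 and 10.38 in LIRFKO mice, against 10.18, 10.20 and 9.98 in floxed mice, a change of 0.03 with an interval from -0.62 to 0.69. In LIRKO mice Irs2 rose by 1.05 ± 0.29 (limma, adjusted p = 0.0207). The difference between the lines was not called for Irs2 (-1.02, adjusted p = 0.287). For Igfbp1 it was -2.97 (adjusted p = 0.214), a lower bound in size, so its missed call says little about whether the lines differ.

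Gluconeogenic genes showed no call either. G6pc had 13.04, 12.88 and 12.54 in LIRFKO mice, against 13.32, 11.81 and 11.93 in floxed mice, with an interval of the change from -0.93 to 1.16. Pck1, which encodes phosphoenolpyruvate carboxykinase, had 15.34, 15.06 and 15.77 in LIRFKO mice, against 15.27, 15.69 and 15.70 in floxed mice, with an interval from -1.11 to 0.97. Both groups overlapped for each gene. Ppargc1a, a coactivator of fasting genes, had a change of 0.51 with an interval from -0.43 to 1.46. Over the 17 measured gluconeogenic genes 0 were called, and changes ran from -0.24 to 0.51 with a median of 0.06, against a median of 0 over all genes tested. Among lipogenic genes, Srebf1 (the SREBP1 factor) had an interval from -0.50 to 0.55 and Fasn (fatty acid synthase) one from -0.92 to 0.43. Scd1, which encodes stearoyl-CoA desaturase, had 9.74, 9.37 and 10.71 in LIRFKO mice, against 11.18, 10.59 and 12.63 in floxed mice. Its change of -1.64 ± 0.56 did not pass (adjusted p = 1.0, and 0.498 without IRF.fl_Fast_523), while Scd1 fell by 2.49 in LIRKO mice. Trib1 (-0.30), Angptl8 (0.17), Mt2 (-0.45) and Foxo3 (-0.03) did not pass. Without IRF.fl_Fast_523 the changes were -0.45 for Igfbp1, 0.03 for Irs2, -0.17 for G6pc, -0.13 for Pck1, 0.46 for Ppargc1a, 0.30 for Srebf1 and 0.11 for Fasn, each with an adjusted p of 0.999 (limma), so the sign of G6pc and Fasn depended on that library.

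Several genes with large LIRKO changes were not called in LIRFKO, and for some the difference between the lines was itself called. Pdk4, which encodes a kinase that shuts pyruvate dehydrogenase, had 8.51, 8.40 and 7.89 in LIRFKO mice, against 7.80, 7.55 and 6.52 in IR/FoxO1 floxed mice, a change of 0.72 ± 0.37 that did not pass. It had 10.77, 10.88 and 11.51 in LIRKO mice, against 7.82, 7.15, 6.49 and 7.49 in IR floxed mice, a rise of 3.78 ± 0.33. All LIRFKO libraries lay above the floxed libraries for Pdk4, but by far less than the LIRKO ones did. The LIRFKO effect minus the LIRKO effect was -3.06 ± 0.47 (limma, adjusted p = 0.000633), and -2.97 without IRF.fl_Fast_523 (adjusted p = 0.00254).

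Igf1, which encodes the growth factor secreted by liver under growth hormone, had 13.66, 13.43 and 13.33 in LIRFKO mice, against 13.26, 13.00 and 12.94 in IR/FoxO1 floxed mice, and its change of 0.58 ± 0.30 did not pass. In LIRKO mice it had 10.86, 12.05 and 10.67, against 13.34, 13.19, 13.69 and 13.90 in IR floxed mice, a change of -2.41 ± 0.27. The lines differed by 2.99 ± 0.38 (limma, adjusted p = 0.000166), and by 2.95 without IRF.fl_Fast_523 (adjusted p = 0.000494). Txnip, which encodes an inhibitor of thioredoxin that also limits glucose uptake, had 9.86, 9.33 and 10.26 in LIRFKO mice, against 9.02, 10.01 and 9.25 in IR/FoxO1 floxed mice. Txnip rose by 2.44 ± 0.22 in LIRKO mice, and the lines differed by -2.17 ± 0.32 (limma, adjusted p = 0.000467), and by -1.93 without IRF.fl_Fast_523 (adjusted p = 0.00168). Pdk4 lost its call when IRF.fl_Fast_516 was left out as well (-2.14, adjusted p = 0.152). With only the 4 fasted groups fitted, the call was lost for Pdk4 (adjusted p = 0.0851) and Txnip (0.158) with all 6 libraries, and for Pdk4 (0.163), Txnip (0.215) and Igf1 (0.122) without IRF.fl_Fast_523.

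Across all genes the difference of fasted knockout effects, LIRFKO minus LIRKO, was called for 210 genes (0.934%), 101 positive (0.449%) and 109 negative (0.485%), and for 129 (0.574%) without IRF.fl_Fast_523, of which 120 were in both counts. Of the 210, 204 were called in LIRKO only, 0 in both lines, 1 in LIRFKO only and 5 in neither. Their median absolute change was 0.15 in LIRFKO and 1.11 in LIRKO, against 0.069 and 0.087 over all genes. These genes were chosen by that difference, so a gap between the medians is in part built in. The lines differ in their floxed controls as well as in FoxO1, so the loss of FoxO1 and the line cannot be told apart in this difference. The count moved with single libraries, to 117 without IRF.KO_Fast_518, 96 without IR.KO_Fast_550 and 112 without IR.fl_Fast_491.

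Among genes above the median level, the most positive called differences were those of Cyp7a1, Cyp7b1, Nat8 and Fam25c. Cyp7a1, the rate-limiting enzyme of bile acid synthesis, had 11.07, 9.60 and 11.50 in LIRFKO mice, against 11.67, 11.55 and 11.60 in IR/FoxO1 floxed mice. In LIRKO mice it had 7.03, 7.45 and 6.45, against 11.69, 10.68, 12.44 and 12.79 in IR floxed mice. Its changes were -0.24 ± 0.64 in LIRFKO and -4.94 ± 0.57 in LIRKO, a difference of 4.69 ± 0.81 (limma, adjusted p = 0.00227). Cyp7b1, a hydroxylase of the alternative bile acid pathway, had 11.83, 11.34 and 12.04 in LIRFKO mice, against 11.55, 10.47 and 10.03 in IR/FoxO1 floxed mice. Cyp7b1 had 10.14, 10.79 and 9.16 in LIRKO mice, against 12.23, 11.51, 13.65 and 13.08 in IR floxed mice. Most IR floxed values thus lay above the IR/FoxO1 floxed ones, so the controls of the lines contribute to the difference. The change of Cyp7b1 was 1.38 ± 0.51 in LIRFKO, not called, and -2.51 ± 0.45 in LIRKO, a difference of 3.89 (limma, adjusted p = 0.0016). Nat8, which encodes an acetyltransferase that completes mercapturic acids, differed by 3.87 (adjusted p = 0.00143) and Fam25c by 3.62 (adjusted p = 0.00243), with LIRFKO changes of 0.46 and 0.82, neither called, against LIRKO changes of -3.41 and -2.80. Without IRF.fl_Fast_523 all of these differences were still called, at 4.51 for Cyp7a1 (adjusted p = 0.00843), 3.86 for Cyp7b1 (0.00459), 3.92 for Nat8 (0.00377) and 3.92 for Fam25c (0.0021). Leaving out IRF.fl_Fast_533 too ended the call for Cyp7a1 (4.07, adjusted p = 0.102), Cyp7b1 (3.17, 0.0944) and Nat8 (3.63, 0.0523). With only the 4 fasted groups fitted, Cyp7a1 (0.0547) and Cyp7b1 (0.184) were not called with all 6 libraries, and none of these genes was called without IRF.fl_Fast_523 (adjusted p from 0.0664 for Nat8 to 0.32 for Cyp7b1). Without IRF.fl_Fast_523, slide as a fixed term also ended the call for Cyp7a1 and Cyp7b1 (0.0761 each), and leaving out the dye term that for Cyp7a1 (0.118).

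By the same rule the most negative differences with all 6 libraries were those of Igdcc4, Cyp2b9, Cyp2b13 and Pdk4. The level limit was set on the mean over the 4 fasted groups, which Igdcc4 and Cyp2b13 passed only through their LIRKO values. In the LIRFKO line most values of both genes lay below the median gene (6.17). Igdcc4, which encodes an immunoglobulin superfamily protein, had 5.48, 5.65 and 5.76 in LIRFKO mice, against 5.57, 6.21 and 5.53 in IR/FoxO1 floxed mice. In LIRKO mice it had 10.05, 6.61 and 9.18, against 5.43 to 5.74 in IR floxed mice, and the lines differed by -3.69 (limma, adjusted p = 0.0044). Cyp2b9 and Cyp2b13, P450 genes higher in female than in male mouse liver, differed by -3.29 and -3.21 (adjusted p = 0.0182 and 0.00713). With all 6 libraries, the calls of Igdcc4, Cyp2b9 and Cyp2b13 were lost without the array block (adjusted p = 0.0527, 0.0915 and 0.0528), with slide as a fixed term (0.0795, 0.137 and 0.137) and with only the 4 fasted groups (0.329, 0.244 and 0.374). Cyp2b9 and Cyp2b13 had the highest level of the 6 libraries in IRF.fl_Fast_523 (7.74 and 7.18). Without it Igdcc4 differed by -3.43 (adjusted p = 0.018) and Cyp2b13 by -2.84 (0.0299), and Cyp2b13 lost its call without any further library of the LIRFKO line, as Igdcc4 did without IRF.fl_Fast_516 (0.0936), IRF.KO_Fast_518 (0.0684) or IRF.fl_Fast_533 (0.152). Cyp2b9 lost its call without IRF.fl_Fast_523 (-2.87, adjusted p = 0.0747), without IR.KO_Fast_505 (0.0803) or IR.KO_Fast_550 (0.096), without IRF.KO_Fast_525 (0.0564) and without IR.fl_Fast_491 (0.0655). Without IRF.fl_Fast_523 Krt23, a keratin gene, differed by -3.84 (adjusted p = 0.0366), Foxo1 by -3.50 (2.01e-08) and Serpinb1a, which encodes an inhibitor of neutrophil proteases, by -3.50 (0.0202). Foxo1 is a gene by which that library was left out, so its p here is not independent evidence. The difference of Serpinb1a was -2.04 when IRF.fl_Fast_516, at 9.13, was also left out (adjusted p = 0.502), and Krt23 lost its call without any further library of the LIRFKO line.

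**Figure D4:**
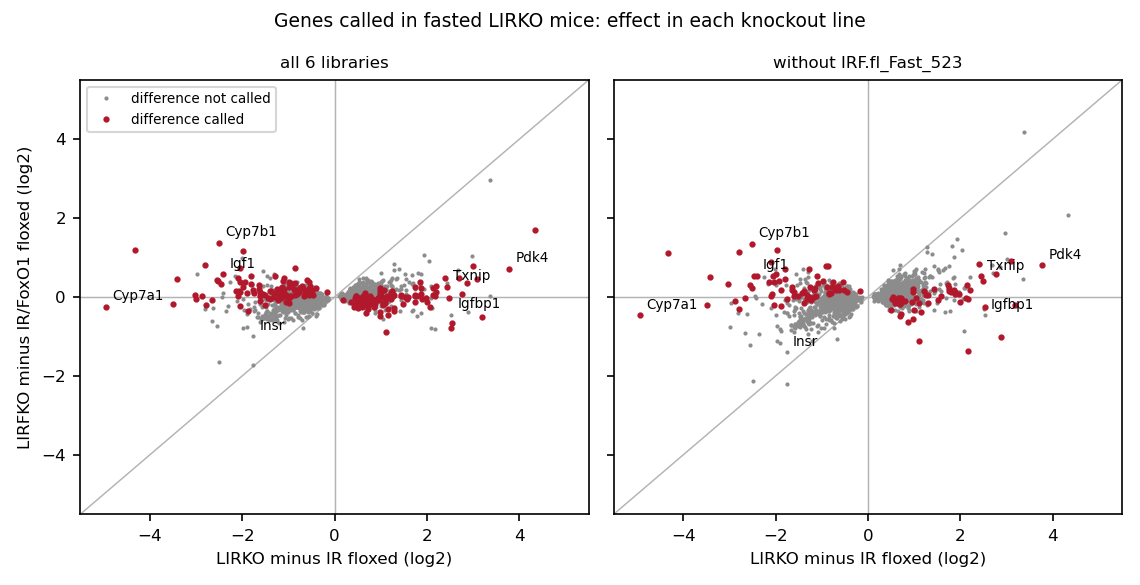
Genes called in fasted LIRKO mice, with the LIRKO change on the x axis and the LIRFKO change on the y axis (log2, knockout minus own floxed controls), with all 6 libraries on the left and without IRF.fl_Fast_523 on the right. Red points are genes for which the difference of the knockout effects was called, and they spread along the x axis near a LIRFKO change of 0. Choosing genes by their LIRKO call and by this difference favours such a spread.

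Of the 1812 genes called in LIRKO, 1153 (63.6%) had the same sign in LIRFKO with all 6 libraries and 1273 (70.3%) without IRF.fl_Fast_523. Their median absolute change was 0.11 in LIRFKO with all 6 libraries and 0.15 without IRF.fl_Fast_523, against 0.65 in LIRKO. Over all genes these medians were 0.069, 0.078 and 0.087. The genes were chosen by their LIRKO values, which favours large changes there. In the fit without IRF.fl_Fast_523, 5 of the 9 LIRFKO calls were also called in LIRKO (55.6% of the 9 and 0.269% of the 1859 LIRKO calls, which were 8.27% of genes). Insr (-1.79 in LIRKO), Omd (-1.34), Syde2 (-0.80) and Pcsk6 (-0.70) were lower and Pcolce (0.78) was higher in LIRKO too. Insr is deleted in both lines, and its LIRFKO call depends on leaving out IRF.fl_Fast_523 for its Insr and Foxo1 values. Omd had 5.62, 5.59 and 5.71 in LIRKO mice, against 6.94, 6.86, 7.08 and 7.19 in IR floxed mice, so both fasted knockout groups lay below their own controls. Mmd2 did not share this: its change was -0.64 in LIRKO, not called, and the lines differed by 2.90 without IRF.fl_Fast_523 (limma, adjusted p = 0.0021).

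Pathway lists were described by counts and medians. Of 621 genes in 34 lists, 0 were called with all 6 libraries and 2 without IRF.fl_Fast_523 (Foxo1 and Insr), against 110 in LIRKO. Over all genes the shares called were 0.00445%, 0.04% and 8.06%, so a count of 0 in LIRFKO is what the background gives and is no result about these lists. List medians ran from -0.24 to 0.41 with all 6 libraries and from -0.30 to 0.40 without IRF.fl_Fast_523, against -1.50 to 0.63 in LIRKO, and over all genes tested the median was 0 in LIRFKO. With all 6 libraries 31 of the 34 medians lay within 0.15 of 0, against 13 in LIRKO. The 3 lists beyond 0.15 were male-biased liver genes (0.41), amino acid catabolism (0.23) and the interferon response (-0.24), and without IRF.fl_Fast_523 their medians were 0.40, 0.27 and -0.27.

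Of the 19 measured male-biased liver genes, whose sex difference in mouse liver follows growth hormone pulses, 17 had a positive change in LIRFKO with 0 called. Without IRF.fl_Fast_523 the count was 14. Over all 22485 genes, 11104 changes were positive with all 6 libraries and 11180 without IRF.fl_Fast_523. In LIRKO 10 were lower, against 3.92% of all genes, and the list median was -1.50. C6, a complement component gene, had 10.10, 8.90 and 10.53 in LIRFKO mice, against 9.77, 8.76 and 8.09 in IR/FoxO1 floxed mice. Its LIRFKO change of 1.16 ± 0.45 did not pass, its LIRKO change was -1.97, and the lines differed by 3.13 (limma, adjusted p = 0.00405). Gstp1, a glutathione transferase gene, had 15.01, 14.54 and 15.38 in LIRFKO mice, against 14.44, 13.88 and 13.42 in floxed mice, a change of 1.22 ± 0.41 that did not pass. LIRFKO and floxed libraries did not overlap for Gstp1 and overlapped for C6. By library the list averaged 11.45, 11.17 and 11.58 in LIRFKO mice IRF.KO_Fast_519, IRF.KO_Fast_518 and IRF.KO_Fast_525, against 11.40, 10.84 and 10.99 in floxed mice IRF.fl_Fast_516, IRF.fl_Fast_523 and IRF.fl_Fast_533. The difference of IRF.KO_Fast_518 and IRF.fl_Fast_516, on the same slide, had a median over the list of -0.21, and that of IRF.KO_Fast_518 and the mean of IRF.fl_Fast_516 and IRF.fl_Fast_523 one of 0.03, each from 1 LIRFKO library.

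Of 28 measured genes of amino acid catabolism and the urea cycle, 25 had a positive change in LIRFKO with 0 called, and 23 without IRF.fl_Fast_523. In LIRKO 8 were lower, against 3.92% of all genes. On the shared slide the same differences of IRF.KO_Fast_518 had list medians of -0.13 and 0.06. Gnmt, the glycine methyltransferase that uses S-adenosylmethionine, had 15.17, 15.13 and 15.74 in LIRFKO mice, against 14.66, 15.41 and 14.78 in floxed mice. Its LIRFKO change of 0.54 was not called, its LIRKO change was -1.29, and the lines differed by 1.82 (limma, adjusted p = 0.0044). Interferon response genes had negative changes in 16 of 22 members, with 0 called in either line. Ifit2 (-0.25), Gbp3 (-0.60), Oasl1 (-0.71) and Ifi27 (-0.43) had the smallest p among them and none passed.

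**Figure D5:**
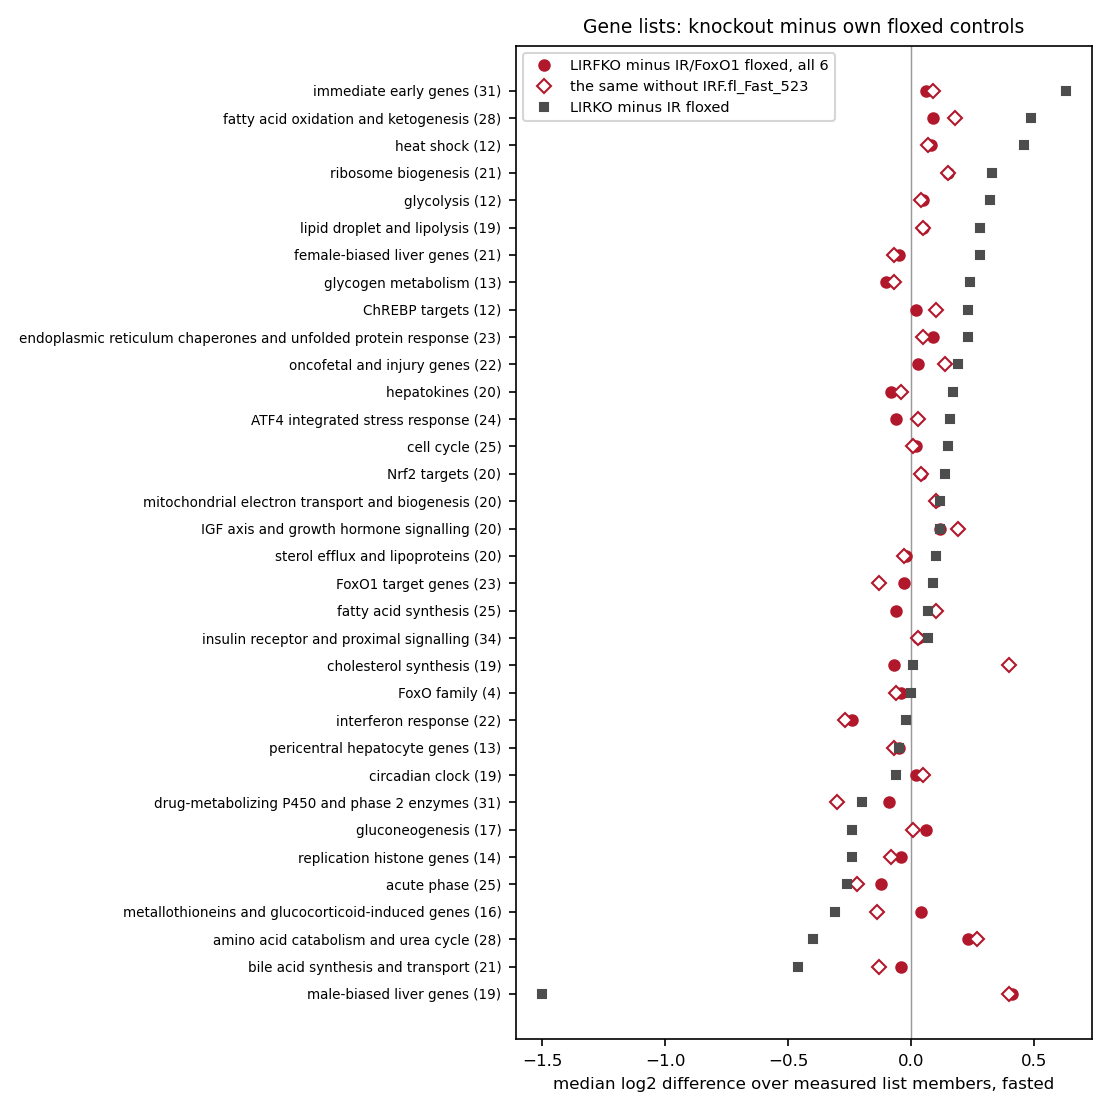
Median log2 change over the measured members of each of the 34 gene lists (number of members in brackets), for LIRFKO minus IR/FoxO1 floxed with all 6 libraries (filled circles) and without IRF.fl_Fast_523 (open diamonds), and for LIRKO minus IR floxed (squares). LIRFKO medians with all 6 libraries run from -0.24 for the interferon response to 0.41 for male-biased liver genes. LIRKO medians run from -1.50 for male-biased liver genes to 0.63 for immediate early genes.

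Lists with called members in LIRKO had 0 called in LIRFKO with all 6 libraries, as the share of 0.00445% over all genes would give. In LIRKO the shares over all genes were 4.14% higher and 3.92% lower. Fatty acid oxidation genes had a median of 0.09 in LIRFKO, against 0.49 with 7 of 28 higher in LIRKO. Ehhadh, which encodes a bifunctional enzyme of peroxisomal beta oxidation, had 14.50, 13.60 and 14.21 in LIRFKO mice, against 13.27, 13.96 and 12.79 in floxed mice, and did not pass (0.84 ± 0.36). Immediate early genes had a median of 0.06 in LIRFKO, against 0.63 with 12 of 31 higher in LIRKO. Myc, with 7.05, 7.66 and 7.50 in LIRFKO mice, against 6.39, 6.87 and 6.64 in floxed mice, showed no overlap and did not pass (0.98 ± 0.44). Bile acid genes had a median of -0.04 in LIRFKO, against -0.46 with 7 lower and 1 higher of 21 in LIRKO. Oncofetal and injury genes had a median of 0.03 in LIRFKO, against 0.19 with 8 of 22 higher in LIRKO. Tff3, the trefoil factor gene of that list, had 11.40, 10.81 and 10.59 in LIRFKO mice, against 6.46, 10.74 and 8.22 in floxed mice. Its change of 2.96 ± 1.13 did not pass (4.19 ± 1.13 without IRF.fl_Fast_523, adjusted p = 0.492), and IRF.fl_Fast_523 again lay among the LIRFKO values.

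Cholesterol synthesis was the list on which IRF.fl_Fast_523 weighed most. Its median change was -0.07 with all 6 libraries and 0.40 without IRF.fl_Fast_523, with 0 of 19 called in both. By library the list averaged 9.97, 9.20 and 10.47 in LIRFKO mice IRF.KO_Fast_519, IRF.KO_Fast_518 and IRF.KO_Fast_525, against 9.16, 11.18 and 9.43 in floxed mice IRF.fl_Fast_516, IRF.fl_Fast_523 and IRF.fl_Fast_533. Sqle, which encodes squalene epoxidase, had 9.75, 8.25 and 10.93 in LIRFKO mice, against 7.74, 11.94 and 8.69 in floxed mice. Fdps, the farnesyl diphosphate synthase gene, had 11.77, 10.08 and 11.91 in LIRFKO mice, against 9.33, 13.46 and 10.69 in floxed mice. Here IRF.fl_Fast_523 did not lie among the LIRFKO libraries but above all of them.

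Markers of other cell types had 0 calls in both sets. The widest shift was in erythroid genes, with 4 of 7 measured and a median of 0.83 with all 6 libraries and 1.03 without IRF.fl_Fast_523, and its summed level followed IRF.KO_Fast_518: the mean over the 4 genes was 10.04, 11.38 and 10.17 in LIRFKO mice IRF.KO_Fast_519, IRF.KO_Fast_518 and IRF.KO_Fast_525, against 9.79, 10.26 and 9.84 in floxed mice IRF.fl_Fast_516, IRF.fl_Fast_523 and IRF.fl_Fast_533. Its part in the results was not tested. Kupffer cell and macrophage markers, 14 of 14 measured, had a median of 0.11 and averages from 8.01 to 8.65 in LIRFKO mice, against 7.80 to 8.27 in floxed mice. Marco, a macrophage scavenger receptor gene, had 11.06, 9.45 and 10.10 in LIRFKO mice, against 8.46, 10 and 9.12 in floxed mice, and did not pass. Pancreatic acinar markers, 7 of 9 measured, averaged 5.79, 5.82 and 5.77 in LIRFKO mice IRF.KO_Fast_519, IRF.KO_Fast_518 and IRF.KO_Fast_525, against 5.87, 5.76 and 7.08 in floxed mice IRF.fl_Fast_516, IRF.fl_Fast_523 and IRF.fl_Fast_533. IRF.fl_Fast_533, 1 of the 2 floxed libraries left without IRF.fl_Fast_523, thus stood apart, although the fitted median was 0.04, and the list median was -1.05 in LIRKO and 1.09 in the difference between lines. The part of these markers in the results was not tested. Stellate cell, endothelial, cholangiocyte, T and NK cell, B cell, adipocyte and muscle lists had medians between -0.05 and 0.06, and neutrophil markers one of -0.17.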

How the data were processed

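Liver RNA was hybridised to Agilent two-colour arrays, and the authors deposited 1 log2 intensity per probe for each channel, treated as a separate sample. Per the submitters' processing notes R 3.1.0 and limma 3.20.1 were used, while the sources used here do not give the background correction or normalization. Of 45220 features, 33026 had 1 gene symbol, 12194 had none and 0 had several. Each of 22485 genes was represented by its probe of highest mean across the columns. Values were fitted with limma 3.58.1 (R 4.3.3, statmod 1.5.0) as group means over 37 samples, and again without IRF.fl_Fast_523, adding the dye, and taking arrays as random blocks (estimated correlation 0.358 or 0.356). P-values were adjusted by Benjamini-Hochberg over all genes, with a threshold of 0.05, and measure the spread between mice. Sample IRF.KO_GTT_724 entered no comparison because its title and its feeding label differ. The fit was tested on simulated data, where changes of 1 and 2 on the log2 scale were recovered in 70% and 98% of cases. There were 10 false calls with all libraries and 17 without IRF.fl_Fast_523 among 22485 genes, beside 70 and 98 planted changes called in each set. In this simulation the false share of the calls was thus above the threshold of 0.05, and more so without IRF.fl_Fast_523. The changes were planted in 100 genes of each size, all above the median level, with normally distributed noise. The real comparison had far fewer calls, which makes the adjustment of p stricter, so these rates are not its power. Members, gene lists and tests were chosen with earlier results of these data known. Named genes were the called genes with the largest changes that had no overlap between groups and a mean above the median gene, up to 4 members of smallest p per gene list and 2 per marker list, a fixed set of key insulin genes, and the 4 most positive and 4 most negative called differences of knockout effects. Alternatives changed the probe choice, the filter on dim genes, dye, array and slide terms, the samples fitted and single libraries.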

Additional observations from a re-analysis of the deposited data

Results flagged for a closer look

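In groups of 4 libraries, single values stood apart from the other 3 by Dixon's gap criterion in 6 of 66 gene and group pairs, where chance gives about 1 in 20. These were 1700113H08Rik at 5.49 and Cyp2b13 at 8.16 in IR.fl_Fast_552, Foxo1 at 9.98 in IR.fl_Fast_491, Pcolce at 9.61 and Foxo3 at 5.42 in IRF.KO_Refed_478, and Angptl8 at 10.92 in IRF.KO_Refed_468.

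Knockout effects differed between the fasted lines (LIRFKO effect minus LIRKO effect, limma interaction) with all 6 libraries by -3.69 for Igdcc4, -3.29 for Cyp2b9, -3.21 for Cyp2b13 and -3.06 for Pdk4, and by 4.69 for Cyp7a1, 3.89 for Cyp7b1, 3.87 for Nat8 and 3.62 for Fam25c. Without IRF.fl_Fast_523 the differences were -3.43 for Igdcc4, -3.84 for Krt23, -3.50 for Serpinb1a and -3.50 for Foxo1, and 4.51 for Cyp7a1, 3.86 for Cyp7b1, 3.92 for Nat8 and 3.92 for Fam25c. Between feeding states in LIRFKO (fasted minus refed effect), Clic5 differed by 1.30 with all 6 libraries and by 1.31 without IRF.fl_Fast_523. Its fasted values lay near the low end of the scale in both groups.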

How the results depend on the processing

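No called change of a gene took the opposite sign under an alternative, but of 33 genes whose fasted LIRFKO change was followed, 13 with all 6 libraries and 14 without IRF.fl_Fast_523 took both signs, and 0 of these were called in any setting. Igfbp1 ran from -0.88 to 0.13, Cyp7a1 from -0.88 to 0.17, Serpinb1a from -1.11 to 0.26 and Fasn from -0.62 to 0.04 with all 6 libraries. The 1 gene called with all 6 libraries became 0 among genes above the median level, without the array block, without the dye term, with slide as a fixed term, with only the compared libraries and with only the 4 fasted groups, and leaving out single libraries gave 0 to 9 genes. In the settings with 0 calls, limma left 227 to 1295 genes at an unadjusted p under 0.05. The 9 genes called without IRF.fl_Fast_523 became 5 without the dye term, 4 with slide as a fixed term, 0 with only the compared libraries (1145 at an unadjusted p under 0.05) and 4 with only the 4 fasted groups, and leaving out a further library gave 2 to 8. The 210 differences between lines became 88 without the array block, 133 without the dye term, 73 with slide and 39 with only the 4 fasted groups, and 96 to 288 without single libraries. The 129 differences without IRF.fl_Fast_523 became 62, 75, 30 and 18 under the same settings, and 41 to 130 without a further library. The 1 difference between feeding states became 0 among genes above the median level and with slide (373 to 681 at an unadjusted p under 0.05), and 1 to 4 without single libraries. The cause was not tested, apart from the fewer genes or samples that some settings hold by construction. Leaving out libraries of the LIRKO line or of the refed groups for the 2 differences, and repeating the alternatives without IRF.fl_Fast_523, were chosen after seeing the data. Where IRF.fl_Fast_523 and another floxed library were left out, the lone floxed sample was assumed to vary like the other groups. No paired analysis was possible because mouse numbers are not shared between groups.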

Other observations

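One library of the LIRFKO line entered no group, since its title names a GTT while another label names a fast. It had Foxo1 at 6.80, Insr at 6.51, Mmd2 at 8.84, Omd at 5.54, Pcolce at 9.09 and Pcsk6 at 10.59. Its value for 1700113H08Rik was 5.64, and it had Igfbp1 at 13.12, Pdk4 at 7.68, Igf1 at 13.69 and Cyp7a1 at 9.51.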
